A study of Mus musculus with 10 samples.

Results

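Prostaglandin E2 (PGE2) is a short-lived lipid signal, and 10 genes of its synthesis, reception and clearance were examined in the lactating mammary gland of mice. They were chosen by function, with earlier results of these arrays known. They include the PGE2 receptors Ptger2, Ptger3 and Ptger4, the cyclooxygenases Ptgs1 and Ptgs2 and the PGE synthase Ptges. The others are the phospholipases A2 Pla2g4a and Pla2g12a, the degrading enzyme Hpgd and the prostaglandin carrier Slco2a1. Every probeset that the platform annotation gives to exactly 1 of these 10 symbols was used. This found 16 probesets for 9 of the 10 genes, out of 22626 probesets other than controls that cover 12393 genes. Ptgs1 was not analysed here.

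The study compared QSi5, an inbred strain selected for high fecundity and a short interval between litters, with CBA (CBA/CaH in the methods), an inbred strain without such selection. Both groups were dams at day 9 of their first lactation, mated as nulliparous young adults within their strain, and no treatment is named. RNA from a small piece of the right inguinal gland of 5 QSi5 and 5 CBA mice was hybridised to Affymetrix chips with 1 array per mouse. The methods name only the MOE430A 2.0 chip, but the arrays were deposited under 2 platforms whose value tables hold the same probesets. In each strain, 3 mice were deposited under the MOE430 2.0 chip and 2 under the smaller MOE430A 2.0 chip. Chip type here means that platform, and it was balanced between the strains. Values are log2 intensities, and a difference is QSi5 minus CBA on that scale, so that 1 is a doubling. Array medians lay between 4.21 and 4.30, and arrays correlated across probesets with a median r of 0.967 inside a strain and 0.946 between the strains. Of the markers of the alveolar epithelium (milk proteins, luminal keratins and the transcription factor Elf5), 8 of 8 passed the intensity minimum described next. Each piece holds a mixture of cell types, so fewer cells of a type in the piece taken and less RNA per cell cannot be told apart.

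A probeset was tested when its unlogged mean exceeded 20 in at least 1 strain, which is 4.32 on the log2 scale. This held for 11501 probesets of the array, and for 6 of the 16 probesets of the PGE2 genes, which belong to 5 genes. A probeset was called where limma's Benjamini-Hochberg (BH) adjusted p over all 11501 was under 0.05. Over the whole array 336 probesets were called, which is 2.92% of those tested, with 1.43% higher and 1.49% lower in QSi5 mice. Of the 6 tested probesets of the PGE2 genes 3 were called, those of Ptger2 (higher in QSi5), Pla2g12a (lower) and Slco2a1 (lower). The 2.92% is the background for that count.

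PGE2 is made in steps. A phospholipase A2 frees arachidonic acid from membrane phospholipid, a cyclooxygenase turns it into prostaglandin H2, and a PGE synthase turns that into PGE2. Released PGE2 acts on neighbouring cells through G protein-coupled receptors, of which EP2 (Ptger2) and EP4 (Ptger4) raise cyclic AMP and EP3 (Ptger3) mostly lowers it. The signal ends when the carrier encoded by Slco2a1 takes PGE2 into a cell and 15-hydroxyprostaglandin dehydrogenase, encoded by Hpgd, oxidises it. In the mammary gland this pathway is best known from work on mammary tumours, where Ptgs2 and the EP receptors have been studied as drivers of growth.

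Before the values, the 250 bases before the annotated start of the 3 genes with a called probeset are shown. The sequences are from RefSeq on GRCm38.p6, which is the sequence of neither strain, and each lies on the plus strand. Capitals mark exact matches, on either strand, to the TATA box TATAAA, the CCAAT box CCAAT, the GC box GGGCGG and TGACG, the core of the cyclic AMP response element.
Ptger2, chr14:44987861-44988110: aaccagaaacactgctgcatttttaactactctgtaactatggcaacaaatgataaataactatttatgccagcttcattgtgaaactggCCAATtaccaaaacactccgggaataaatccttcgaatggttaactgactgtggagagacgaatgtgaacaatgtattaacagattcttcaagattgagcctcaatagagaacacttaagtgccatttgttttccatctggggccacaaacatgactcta
Pla2g12a, chr3:129880934-129881183: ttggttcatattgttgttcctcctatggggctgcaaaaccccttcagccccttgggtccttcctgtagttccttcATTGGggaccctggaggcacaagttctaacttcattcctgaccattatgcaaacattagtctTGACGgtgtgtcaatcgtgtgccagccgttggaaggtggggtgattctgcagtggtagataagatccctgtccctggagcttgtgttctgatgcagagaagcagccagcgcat
Slco2a1, chr9:103008237-103008486: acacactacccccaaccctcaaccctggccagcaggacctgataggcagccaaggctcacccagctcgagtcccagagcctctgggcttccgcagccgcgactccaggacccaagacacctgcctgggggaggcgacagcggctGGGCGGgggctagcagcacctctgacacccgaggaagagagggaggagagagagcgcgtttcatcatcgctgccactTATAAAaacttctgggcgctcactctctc
The 3 windows differ in composition. That of Ptger2 is 38.0% G and C with 3 CpG, that of Pla2g12a is 50.8% with 4 CpG, and that of Slco2a1 is 63.2% with 12 CpG. The Ptger2 window holds 1 CCAAT match, which starts at position -160 from the gene start. That of Pla2g12a holds a CCAAT match at -175 and TGACG at -113, while that of Slco2a1 holds TATAAA at -29 and GGGCGG at -106. Among 32851 RefSeq promoter windows of the same length, 33.8% hold CCAAT, 17.8% TGACG, 12.4% TATAAA and 32.7% GGGCGG. The full response element TGACGTCA, which contains TGACG and is held by 1.55% of all windows, and the Stat motif TTCNNNGAA, held by 7.02%, were searched as well and are not in these 3 windows. The windows of Pla2g12a and Slco2a1 lie inside the annotated span of their gene, which begins at base 129878606 of chromosome 3 and base 103007061 of chromosome 9 for longer transcripts. A match is a description of the letters only.

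Ptger2 was much brighter in QSi5 than in CBA glands. The gene lies on chromosome 14 (GRCm38.p6, bases 44988111 to 45003820) and is measured by 1 probeset, 1449310_at. The CBA mice 1 to 5 had log2 intensities of 4.19, 3.99, 4.36, 4.29 and 4.82, and the QSi5 mice 1 to 5 had 6.18, 6.89, 6.43, 6.18 and 6.95. Every QSi5 mouse stood above every CBA mouse, and the gap between the nearest mice of the strains was wider than the range within either strain. The means were 4.33 ± 0.31 in CBA and 6.53 ± 0.38 in QSi5 mice (SD, n = 5 each). The difference was 2.20 (SE 0.19, 95% interval 1.77 to 2.62), or 4.58-fold, with a limma adjusted p of 2.89e-05. Within chip types it was 2.09 (MOE430 2.0) and 2.36 (MOE430A 2.0). The unlogged mean in CBA mice was 20.5, just over the minimum of 20, against 94.7 in QSi5 mice, so the CBA level was close to that of probesets that were not tested.

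**Figure D1:**
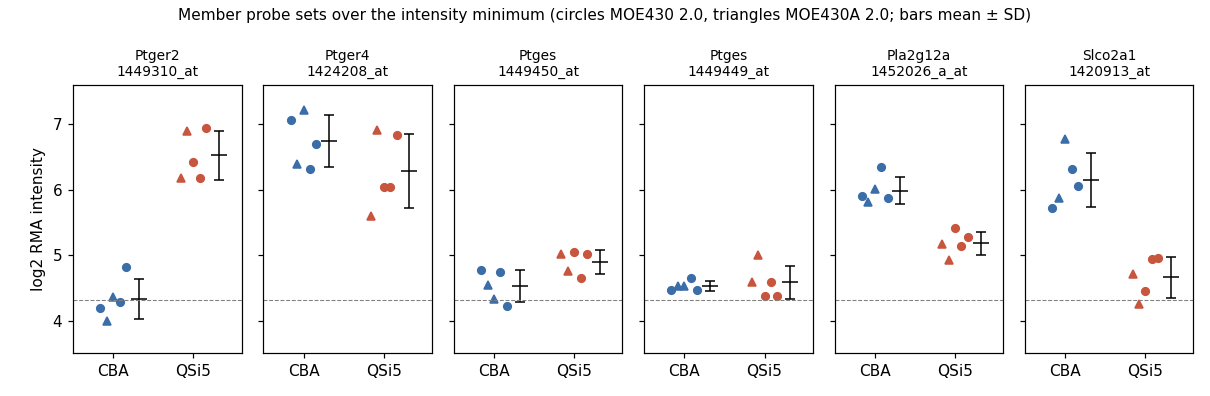
Log2 RMA intensity in each mouse for the 6 tested probesets of the PGE2 genes, by strain, with the mean and SD as bars. Circles are MOE430 2.0 and triangles MOE430A 2.0 arrays, and the dashed line marks 4.32, the log2 of the intensity minimum. The strains are separate for Ptger2, Pla2g12a and Slco2a1 and overlap for Ptger4 and both Ptges probesets.

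Ptger4, which encodes the other PGE2 receptor that raises cyclic AMP, lies on chromosome 15 (bases 5233399 to 5244187) and has 2 probesets. On the brighter, 1424208_at, the CBA mice had 7.07, 6.39, 7.22, 6.32 and 6.70 and the QSi5 mice 5.60, 6.91, 6.04, 6.04 and 6.83. The strains overlapped, with QSi5 mice 2 and 5 among the CBA values and the other 3 QSi5 mice below all of them. The difference was -0.46 (SE 0.27, 95% interval -1.04 to 0.12, limma adjusted p = 0.468), an interval that spans 0. The second Ptger4 probeset, 1421073_a_at, was under the minimum at 2.01 to 2.40 in all mice.

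Ptger3, the receptor that mostly couples to inhibitory G proteins, was under the minimum on both of its probesets. It lies on chromosome 3 (bases 157566821 to 157644758). On 1450344_a_at the CBA mice had 3.36, 4.0, 3.94, 3.91 and 3.27 and the QSi5 mice 3.14, 2.99, 3.39, 3.08 and 3.44. In 3 of the 5 QSi5 mice the value was below all CBA mice, and the other 2 fell among the low CBA values. In a limma fit of all 22626 probesets with no minimum, in which 1.48% were called, this difference of -0.49 (95% interval -0.84 to -0.14) had an adjusted p of 0.227. Within chip types it was -0.21 (MOE430 2.0) and -0.91 (MOE430A 2.0). The other probeset, 1425251_at, lay between 2.02 and 2.85 over all mice, with a difference of 0.09 (adjusted p = 0.887 in the same limma fit).

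The receptors were also set against each other within each array, which takes out whatever moves a whole array. The level of such a difference has no meaning of its own, since probesets of different genes bind with different strength, so only its change between the strains was tested. Ptger2 minus Ptger4 ranged from -2.88 to -1.89 in CBA and from -0.02 to 0.58 in QSi5 mice, a strain difference of 2.66 (exact permutation test, two-sided, p = 0.00794, BH adjusted p = 0.0106 over 4 such contrasts). Ptger2 minus Ptger3 ranged from -0.01 to 1.55 in CBA and from 3.04 to 3.91 in QSi5 mice, a strain difference of 2.69 with the same exact p and adjusted p. With 5 mice per strain, 0.00794 is the smallest p the test can give. Ptger2 enters both contrasts and already differed by 2.20 on its own, so their p-values are not separate evidence, and Ptger3 was under the minimum in every mouse.

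**Figure D2:**
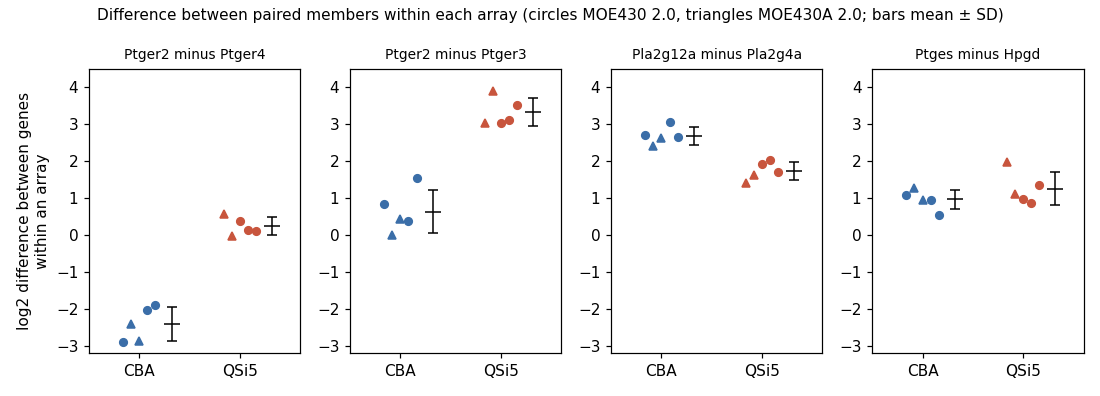
Difference between the log2 intensities of paired PGE2 genes within each array, by strain, with mean and SD as bars. The strains are separate for Ptger2 minus Ptger4, Ptger2 minus Ptger3 and Pla2g12a minus Pla2g4a, and overlap for Ptges minus Hpgd. Only the shift between strains can be read, not the level.

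On the synthesis side, Pla2g12a, which encodes a small secreted phospholipase A2, was lower in QSi5 glands. The gene lies on chromosome 3 (bases 129878606 to 129895825) and is measured by 1452026_a_at. The CBA mice had 5.91, 5.81, 6.01, 6.34 and 5.88, and the QSi5 mice had 5.17, 4.92, 5.41, 5.14 and 5.27. All 5 QSi5 mice were below all CBA mice, and the spread was small in both strains, with means of 5.99 ± 0.21 in CBA and 5.18 ± 0.18 in QSi5 (SD, n = 5 each). The difference was -0.81 (SE 0.13, 95% interval -1.08 to -0.53), so the CBA level was 1.75-fold that of QSi5 (limma adjusted p = 0.00352). On the arrays of each chip type alone the difference was close to the same size, but its adjusted p was 0.0764 with the 6 MOE430 2.0 arrays and 0.213 with the 4 MOE430A 2.0 arrays.

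Pla2g4a encodes the cytosolic phospholipase A2 that prefers arachidonate. It lies on chromosome 1 (bases 149829618 to 149961290), and its probeset 1448558_a_at was under the minimum. The CBA mice had 3.19, 3.41, 3.40, 3.28 and 3.23 and the QSi5 mice 3.76, 3.30, 3.48, 3.12 and 3.56, so the strains overlapped. The difference of 0.14 (95% interval -0.11 to 0.40, limma with no minimum, adjusted p = 0.733) ran the other way from that of Pla2g12a. Within arrays, Pla2g12a minus Pla2g4a differed between the strains by -0.95 (exact permutation test, two-sided, p = 0.00794, BH adjusted p = 0.0106 over 4 contrasts). Since Pla2g12a was already called on its own and Pla2g4a was under the minimum in every mouse, this p is not separate evidence.

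The cyclooxygenase Ptgs2, which is switched on by growth factors and inflammation, was dim in both strains. It lies on chromosome 1 (bases 150100031 to 150108234). Over all 10 mice, 1417263_at lay between 3.21 and 3.63 and 1417262_at between 2.15 and 2.51, all below the minimum of 4.32. Their differences were -0.11 and 0.08 (limma with no minimum, adjusted p = 0.729 and 0.822), and the 95% intervals, -0.30 to 0.08 and -0.12 to 0.28, were among the narrowest of the PGE2 genes. At such low intensity, a change in the transcript may not move the signal by its full size.

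Ptges, the membrane-bound PGE synthase that often works with Ptgs2, was just over the minimum on both probesets. It lies on chromosome 2 (bases 30889471 to 30931020). On 1449450_at the CBA mice had 4.78, 4.55, 4.33, 4.75 and 4.23 and the QSi5 mice 5.01, 4.76, 5.05, 4.66 and 5.01. In 3 QSi5 mice the value was above all CBA mice, and the other 2 stood among the upper CBA values. The difference was 0.37 (SE 0.14, 95% interval 0.08 to 0.67), which had an unadjusted p of 0.0177 in limma but an adjusted p of 0.210. On 1449449_at it was 0.06 (95% interval -0.21 to 0.33, limma adjusted p = 0.870), with QSi5 mouse 2 the highest at 5.0 and the other 9 mice between 4.37 and 4.65.

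On the clearance side, Slco2a1, which encodes the plasma membrane carrier that takes up prostaglandins, was lower in QSi5 glands on 1 of its 3 probesets. The gene lies on chromosome 9 (bases 103007061 to 103096002). On 1420913_at the CBA mice had 5.72, 5.87, 6.77, 6.31 and 6.05 and the QSi5 mice 4.71, 4.25, 4.45, 4.94 and 4.96. All 5 QSi5 mice were below all CBA mice, with means of 6.15 ± 0.41 in CBA and 4.66 ± 0.31 in QSi5 (SD, n = 5 each). The difference was -1.49 (SE 0.20, 95% interval -1.93 to -1.04), a CBA level 2.80-fold that of QSi5 (limma adjusted p = 0.00127). It was -1.25 on the MOE430 2.0 and -1.84 on the MOE430A 2.0 arrays, and with the 4 arrays of the smaller chip alone the adjusted p was 0.107.

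The other 2 Slco2a1 probesets do not show this difference. In all mice 1450032_at lay between 2.88 and 3.72 and 1420914_at between 2.66 and 3.04, both under the minimum. Their differences were -0.06 (95% interval -0.43 to 0.30) and -0.05 (-0.24 to 0.14), with limma adjusted p of 0.938 and 0.893 when no minimum was set. The call for Slco2a1 therefore rests on 1 probeset, and the disagreement is between a measurable probeset and a pair near the floor of the array.

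Hpgd, whose product oxidises PGE2 to an inactive form, was under the minimum on both probesets. It lies on chromosome 8 (bases 56294552 to 56321046). On 1419905_s_at, a kind of probeset that can match transcripts of more than 1 gene, the CBA mice had 2.47, 2.68, 2.67, 2.79 and 2.77 and the QSi5 mice 3.61, 3.42, 3.21, 2.85 and 3.04. All 5 QSi5 mice were above all CBA mice, although QSi5 mouse 4 was only just so. The difference was 0.55 (95% interval 0.26 to 0.85), with a limma adjusted p of 0.0828 in the fit with no minimum, and it was 0.36 on the MOE430 2.0 and 0.84 on the MOE430A 2.0 arrays. The brighter probeset, 1419906_at, gave 0.08 (95% interval -0.30 to 0.46, adjusted p = 0.917 in that limma fit), with the strains overlapping. Ptges minus Hpgd within arrays differed by 0.29 between the strains (exact permutation test, two-sided, p = 0.254, BH adjusted p = 0.254 over 4 contrasts). With the mean of all probesets of each gene in place of the brightest, that value was -0.10.

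**Figure D3:**
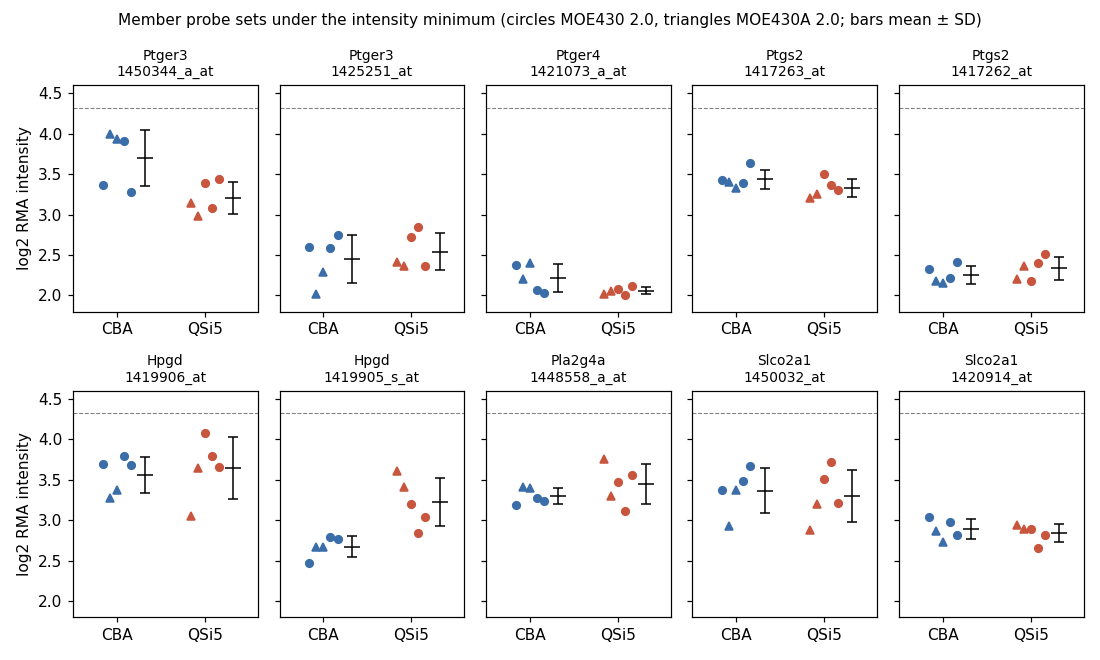
Log2 RMA intensity in each mouse for the 10 probesets of the PGE2 genes under the intensity minimum, by strain, with mean and SD as bars. Symbols and the dashed line at 4.32 are as for the tested probesets. All 10 lie below the line, and the strains are separate only for Hpgd 1419905_s_at.

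Counted by separation, the strains did not overlap on 3 of the 6 tested probesets, against 5.11% of all tested probesets, and on 1 of the 10 under the minimum, against 1.76% of all probesets there. Counted by gene on the brightest tested probeset, 3 of the 5 tested genes were called, against 2.67% of 7405 tested genes. The genes were named with earlier results of these arrays known, so the counts describe them and support nothing. No other PGE2 probeset was called in the fit with no minimum.

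**Figure D4:**
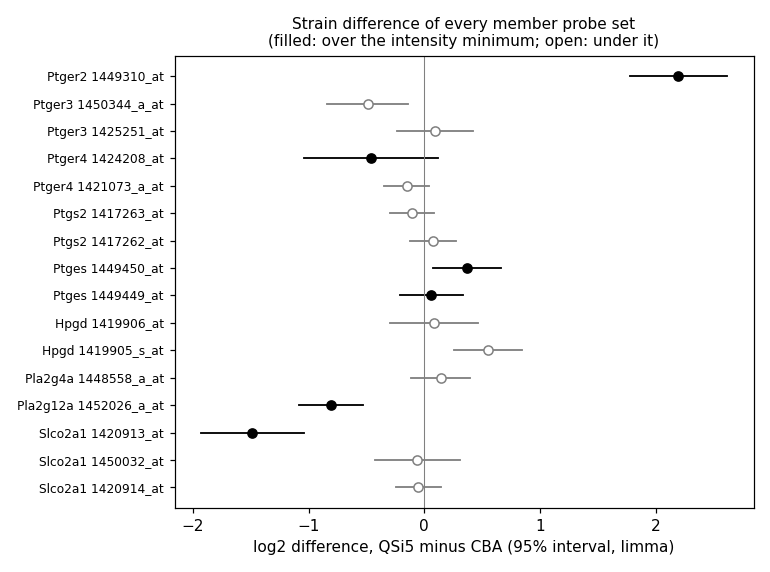
Strain difference (QSi5 minus CBA, log2) of each of the 16 probesets of the PGE2 genes with limma's 95% interval. Filled points are the 6 tested probesets and open points the 10 under the intensity minimum, whose intervals come from the fit with no minimum. Ptger2 stands at 2.20, Pla2g12a at -0.81 and Slco2a1 at -1.49, and the other 13 lie between -0.49 and 0.55.

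The other genes around PGE2 were followed in 7 lists. Of 72 listed genes that could be tested on their brightest probeset, 2 were called, which is close to the share of 2.67% among all tested genes. The median difference of the 72 was 0.05, against 0.00 for all 7405 genes. The lists follow the pathway from arachidonate to the genes that cyclic AMP switches on.

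Among the other phospholipases A2 and genes of arachidonate handling, 17 of 32 were tested, 1 was higher and 16 did not pass, with a median of 0.03. The one called was Plaat3, a phospholipase A and acyltransferase of adipose tissue and other cells. On 1451611_at the CBA mice had 6.99, 6.92, 7.26, 7.51 and 6.98 and the QSi5 mice 7.98, 7.53, 8.08, 7.81 and 7.93. All QSi5 mice were above all CBA mice, though QSi5 mouse 2 and CBA mouse 4 differed by little. The difference was 0.73 (SE 0.14, limma adjusted p = 0.0148). It did not pass without QSi5 mouse 3 (0.68, adjusted p = 0.0511), on either chip type alone (adjusted p = 0.0987 and 0.388) or in an unmoderated test, in which each probeset has its own variance only (adjusted p = 0.0555). Of the 16 that did not pass, Acsl4, which joins arachidonate to coenzyme A, had -1.03 (adjusted p = 0.110), Elovl5, an elongase of polyunsaturated fatty acids, 0.74 (0.131), and Mgll, monoacylglycerol lipase, -0.75 (0.263) in the same limma fit.

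Beyond Ptges, the list of other prostanoid synthases and reductases had 10 of 16 genes tested and 0 called. Their differences lay between -0.04 and 0.23 with a median of 0.12, 8 above 0 and 2 below, and 0 had an unadjusted limma p under 0.05. The smallest p was that of Prxl2b, a prostamide and prostaglandin F synthase, at 0.20 (adjusted p = 0.457). Of the leukotriene and lipoxygenase genes 6 of 14 were tested and 0 called in limma, with 0 at an unadjusted p under 0.05 and a median of -0.04. Ephx2, soluble epoxide hydrolase, had the smallest p there at -0.36 (adjusted p = 0.346). Neither list had a gene whose difference came near that of Pla2g12a.

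Of the other eicosanoid receptors 7 of 15 were tested and 0 were called by limma, with 0 at an unadjusted p under 0.05, a median of 0.02 and a range of -0.03 to 0.19. The smallest p was that of Pparg, a nuclear receptor that binds some prostaglandin derivatives, at 0.19 (adjusted p = 0.424). Ptger1, the PGE2 receptor that acts through calcium, stood at -0.00 (adjusted p = 0.992). Of the prostaglandin transporters other than Slco2a1 only 2 of 10 were tested, Slc22a6 (0.09, adjusted p = 0.862) and Slco1a4 (-0.07, adjusted p = 0.890), and 0 had an unadjusted limma p under 0.05. No tested gene of these lists was called beside Ptger2 and Slco2a1.

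Downstream of the receptors, the cyclic AMP list had 20 of 38 genes tested, with 0 higher, 1 lower, 19 not passing and a median of 0.06. The one called was Gnai1, which encodes an inhibitory G protein alpha subunit that lowers cyclic AMP. Its probeset, 1454959_s_at, is also of the kind that can match transcripts of more than 1 gene. On it the CBA mice had 6.14, 6.64, 6.54, 6.75 and 6.40 and the QSi5 mice 5.94, 5.53, 5.75, 5.13 and 5.82. The strains did not overlap, and QSi5 mouse 4 was the lowest. The difference was -0.86 (SE 0.16, limma adjusted p = 0.0137). It did not pass on either chip type alone (adjusted p = 0.176 and 0.243) or in the unmoderated test (adjusted p = 0.0623). Gnas, the stimulatory alpha subunit through which EP2 and EP4 act, had 0.23 (adjusted p = 0.463), and Adcy9, an adenylyl cyclase, had 0.42 (adjusted p = 0.154) in the same limma fit.

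The CREB target list, genes known to rise when cyclic AMP rises in many cells, had 10 of 17 tested and 0 called, with 1 at an unadjusted limma p under 0.05. The median was -0.08, with 4 above 0 and 6 below. That 1 was Fos, an immediate early gene, at -0.62 (SE 0.28, adjusted p = 0.322). It was -0.29 on the MOE430 2.0 and -1.12 on the MOE430A 2.0 arrays. The list thus gave no call in either direction beside the difference of Ptger2.

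**Figure D5:**
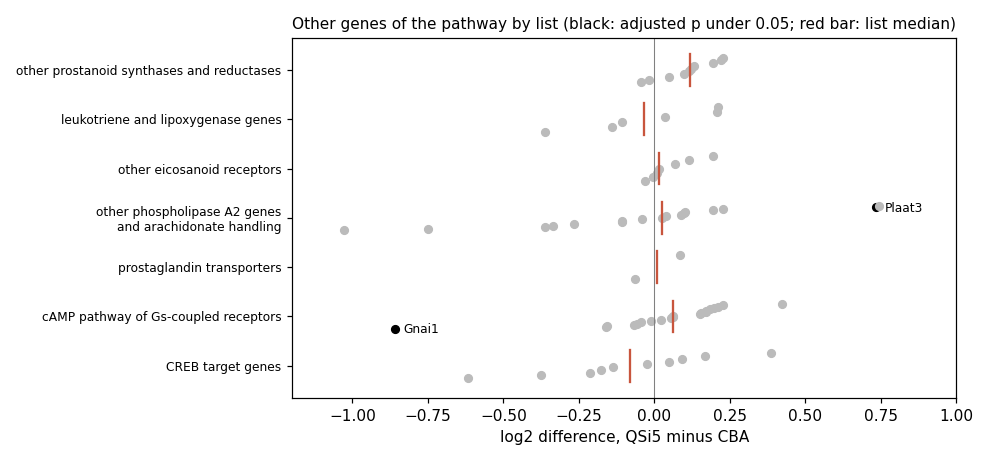
Strain difference (QSi5 minus CBA, log2) of the 72 tested genes of 7 lists around PGE2, 1 point per gene on its brightest tested probeset. Black points are called in limma (Plaat3 at 0.73 and Gnai1 at -0.86), grey points are not, and the red bar is the list median. The medians lie between -0.08 and 0.12.

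Markers of the cell types of the gland were read beside the 3 called genes. Slco2a1 is well known from endothelium, and of 8 endothelial markers 3 were tested and 0 called, with a median difference of -0.13. Sums of unlogged intensity were taken over every listed marker with a probeset, tested or not. For the 8 endothelial markers the sum was 134 to 155 in CBA and 123 to 149 in QSi5 mice, and the strains overlapped. The defining markers Pecam1, Tek, Tie1, Vwf and Emcn were under the minimum. Cdh5 had -0.32 (limma adjusted p = 0.151) at a mean of 4.22 over all arrays, so it passed the minimum only through the CBA mice. The brighter Kdr (mean 5.27) had -0.13 and Egfl7 (mean 5.44) had -0.02, with limma adjusted p of 0.688 and 0.973. The part of endothelial cells in the difference of Slco2a1 was not tested.

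For Ptger2, which immune cells also carry, the 6 of 10 tested lymphocyte markers had a median difference of 0.51 with 0 called. Of the 6, Cd3d, Ms4a1, Cd79a and Cd79b had mean log2 intensities of only 3.52 to 4.05 over all arrays. They passed the minimum only through the QSi5 mice, where they were higher, so the minimum itself shaped this median. Nkg7, with a mean of 4.38, had 0.30, and Cd3e, the brightest at 6.79, had 0.09 (limma adjusted p = 0.786). The summed intensity of the 9 lymphocyte markers with a probeset was 196 to 222 in CBA and 211 to 527 in QSi5 mice. Of these, Cd4, Cd8a and Cd2 were under the minimum. The 4 of 8 tested macrophage markers had 0 called and a median of 0.03, but ran from -1.40 (Cd14) to 0.56 (Lyz2). The sum of all 8 was 459 to 2972 in CBA and 451 to 843 in QSi5 mice. Cd68, Itgam, Mrc1 and Fcgr1 were under the minimum. Of 8 mast cell and platelet markers 4 were tested and 0 called. The sum of all 8 was 178 to 207 in CBA and 186 to 232 in QSi5 mice. The sums overlapped between the strains in each of these lists, and the part of these cells in the difference of Ptger2 was not tested.

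Of the 8 alveolar markers 7 did not pass and Krt8, a luminal keratin, had a lower level in QSi5 mice, with -0.83 (limma adjusted p = 0.0167). The other 7 ran from -0.11 (Elf5) to 0.40 (Lalba, adjusted p = 0.0853), with the luminal keratin Krt18 at 0.08, and the list median was 0.01. The sum of all 8, which the milk protein genes fill, was 70920 to 77111 in CBA and 76181 to 80107 in QSi5 mice. Adipocyte markers had 4 of 7 tested and 0 called. Their median difference was -0.09, with a range from -0.73 (Fabp4, limma adjusted p = 0.135) to 0.09 (Lep). The sum of the 5 with a probeset was 919 to 2137 in CBA and 760 to 1097 in QSi5 mice. Markers of fibroblasts (6 of 7 tested), myoepithelium (7 of 8) and skeletal muscle and skin (2 of 7) also had 0 called, with median differences of 0.17, -0.10 and -0.08. The part of these lists in the differences of Pla2g12a and Slco2a1 was not tested.

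The nearest RefSeq genes with a tested probeset on each side of the called genes did not pass. Beside Ptger2 on chromosome 14, Ptgdr, the prostaglandin D2 receptor that lies 129 kb away, had 0.01 (SE 0.10), and Txndc16, 131 kb away, had 0.09 (SE 0.15). Beside Pla2g12a, Gar1 at 47.2 kb had -0.40 and Casp6 at 5.59 kb had 0.31, with limma adjusted p of 0.285 and 0.422. Beside Slco2a1, Ryk at 98.8 kb had -0.38 and Srprb at 92.0 kb had 0.37, with adjusted p of 0.159 and 0.358. None of these 6 neighbours was called.

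The genes whose profile over the 10 arrays was most like that of each called gene were taken by Pearson's r among 7404 tested genes. For Ptger2 these were Gstm4 (r = 0.965), Pigc (0.963), Neo1 (0.961), Retsat (0.959) and H2-K1 (0.956). For Pla2g12a they were Rpl14 (0.975), Bcat2 (0.956), Gjb6 (0.946), Dkkl1 (0.945) and Abhd1 (0.932), and for Slco2a1 Bcat2 (0.952), Foxn2 (0.945), Vars (0.940), Kctd14 (0.939) and Fen1 (0.937). The 10 arrays share the split by strain, which enters each r. After each strain was centred on its own mean, the r with Ptger2 was 0.68 for Gstm4, 0.58 for Pigc, 0.51 for Neo1, 0.07 for Retsat and 0.23 for H2-K1. The centred r with Pla2g12a lay between 0.57 (Abhd1) and 0.85 (Rpl14), and that with Slco2a1 between 0.54 (Vars) and 0.88 (Fen1).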

How the data were processed

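RNA of the lactating gland was measured in 10 mice, 5 of each strain, with 1 Affymetrix array per mouse, and the sample labels gave the strain. The log2 values were deposited by the authors after RMA, in which background correction, quantile normalization across arrays and probe summary give 1 value for each of the 22690 probesets that both chip types share. The labels name the affy and limma packages, and versions are not given in the sources used here. The number of arrays limits the precision. There were 0 columns of other series.

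After 64 control probesets were removed, 22626 remained. The platform annotation names 1 gene for 20380 of them, several for 691 and none here for 1555. An Entrez identifier linked 20351 of the 20380 to RefSeq, which changed 0 symbols. As in the methods, probesets with an unlogged mean over 20 in at least 1 strain were kept (11501). The fit used lmFit and eBayes of limma 3.58.1 under R 4.3.3, two-sided with no covariate, and Benjamini-Hochberg adjustment over all kept probesets. A call is an adjusted p under 0.05. The fit was tested on simulated data. Contrasts between genes within arrays took the brightest probeset of each gene and an exact permutation test.

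The PGE2 genes and the pathway and marker lists were chosen with earlier results of these data known. Named genes are all 10 members with every probeset, the called genes of each pathway list (or else the gene with its smallest p), the 5 genes most like each called member and the nearest tested gene on each side of it. Gnas, Ptger1, Slco1a4, Adcy9, Acsl4, Elovl5, Mgll, Krt8, Cdh5, Cd14 and Lyz2 were chosen after their values were seen. The same holds for Cd3d, Cd3e, Ms4a1, Cd79a, Cd79b, Nkg7, Kdr, Egfl7, Krt18, Elf5, Lalba, Fabp4 and Lep. Probesets of Ptgs1 were not analysed here. Promoters came from a RefSeq table on GRCm38.p6. Alternatives changed 1 choice at a time, among the intensity minimum, normalization, chip types, pairing, limma's options, the test, the probesets and the mice used.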

Additional observations from a re-analysis of the deposited data

Results flagged for a closer look

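Of 86 sets of 5 arrays (1 probeset in 1 strain) examined, 1 held a mouse that stood far from the other 4, whereas chance gives about 1 in 20. This was Slc22a6, an organic anion transporter that also carries prostaglandins, on 1417072_at, where CBA mouse 3 had a log2 intensity of 3.77 and the other CBA mice 4.29 to 4.43. Its gap to the nearest mouse was 0.785 of the range of the 5 values, above the critical value of 0.71. No probeset of the 10 PGE2 genes held such a mouse.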

How the results depend on the processing

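Ptger2 kept its direction and call in all 23 alternatives run (2.09 to 2.36, adjusted p up to 0.0272). Slco2a1 did so in 22 of 23 and Pla2g12a in 21 of 23. With the MOE430 2.0 arrays alone Pla2g12a had -0.77 (adjusted p = 0.0764), and with the MOE430A 2.0 arrays alone Pla2g12a had -0.86 (0.213) and Slco2a1 -1.84 (0.107), which left 1 called probeset of the PGE2 genes. Those settings hold fewer arrays, and the called probesets of the whole array fell to 144 and 64. That count was 204 with an unmoderated test of each probeset, not the test that the study used on its arrays, 460 with array weights, and 210 to 417 when 1 mouse was left out (210 without QSi5 mouse 3, 218 without QSi5 mouse 5). The called genes of the pathway lists were 0 and 0 with each chip type alone and 1 to 3 when 1 mouse was left out (1 without QSi5 mouse 3). Ptger2 minus Ptger3 was 3.27 on the MOE430A 2.0 arrays alone, and Ptges minus Hpgd was -0.10 with the mean of all probesets of each gene. Where no smaller number of arrays enters, the cause was not tested.

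The labels do not say whether replicate numbers pair the mice. The correlations of same-numbered deviations were -0.25, 0.29, -0.37, 0.05 and 0.02, which show no steady pairing, and the main fit used none. With a replicate block 255 probesets were called, and the pathway lists had 1 called gene, as the adjusted p of Gnai1 was 0.0813. Of the other genes named, Gstm4 lost its call under the block (adjusted p = 0.0966). Among all alternatives run for it, Gstm4 kept its call in 12 of 22.

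Some values near 0 that were not called changed sign. Ptges 1449449_at was -0.075 with the MOE430 2.0 arrays alone, -0.025 with array weights and -0.041 to 0.11 when 1 mouse was left out. Ptgdr was -0.0042 with arrays centred on their median, -0.047 with the MOE430 2.0 arrays alone, -0.00041 with array weights and -0.045 to 0.044 when 1 mouse was left out. Slc22a6 was -0.22 with the MOE430 2.0 arrays alone, -0.070 with array weights and -0.035 to 0.18 when 1 mouse was left out. Txndc16 was -0.076 with the MOE430 2.0 arrays alone and -0.023 to 0.21 when 1 mouse was left out. The intensity minimum taken on the mean log2 value was added after seeing the data and left 336 called probesets. The contrast of Ptgs2 with Ptgs1 was not run because no Ptgs1 probeset was analysed here.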
